A study of Mus musculus with 40 samples.

Results

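The genes described here are regulators and targets of the NF-κB pathway: the subunit genes Relb, Nfkb1 and Nfkb2, the inhibitors Nfkbia and Tnfaip3, the receptor gene Tlr2, the adaptor gene Tifa and the ubiquitin ligase gene Birc3. They were chosen as a list of 8 names, with earlier results of these data known, and matched to the gene names of the expression tables. Shares of all entries set beside them below are therefore descriptions only. Of the 8, 7 had an entry of their own among 11119 entries, and Nfkb2 was present only joined to its neighbour Psd. Poly(A) RNA of livers from mice of 3 or 12 months was sequenced at 3 times around partial hepatectomy (PH), the removal of part of the liver that makes the remaining hepatocytes divide. These were 0 h (before it), 48 h and 72 h. At 24 h some mice had received ATRi, which inhibits ATR, a kinase of the response to replication stress.

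The 9 groups were untreated 3-month mice at 0 h (7 mice), 48 h (3) and 72 h (4), ATRi-treated 3-month mice at 72 h (4), untreated 12-month mice at 0 h (8), 48 h (3) and 72 h (4), and ATRi-treated 12-month mice at 48 h (3) and 72 h (4). Strain, sex and the unit of the ATRi dose are not given in the sources used here. Each group had 1 deposited mean, and the 12-month ATRi group at 72 h also had its 4 single livers, M545, M546, M547 and M548. All 8 of the 12-month mice at 72 h are also listed at 0 h, as are some of the 3-month mice, so these groups share mice. Some mice of the 3-month group at 0 h are labelled wt and are not listed at 72 h. The mean of that group, used in the comparisons by age and time below, includes them. The mice at 48 h carry a separate numbering and are not listed at 0 or 72 h. The meaning of these labels is not given in the sources used here, and their part in the differences was not tested.

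NF-κB is a family of dimeric transcription factors held in the cytoplasm by IκB proteins. Toll-like, IL-1 and TNF receptors signal through adaptors and ubiquitin ligases to kinases that release the dimers, and the dimers then induce many of their own regulators, including the inhibitors that end the signal. In the liver the pathway is known from the response to gut-derived bacterial products, from the priming of hepatocytes after PH and from protection against death by TNF.

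Because NF-κB binds a short DNA element near many of its targets, the windows around the transcript starts of the listed genes were read for the NF-κB consensus on both strands (RefSeq, GRCm38.p6, 250 bases before to 50 after each start). Of the listed genes, 6 had a window and 5 of these held a match, while 1388 of all 27025 genes with a window (5.14%) did. Nfkbia and Tifa had 1 match each, Tnfaip3 had 2, Tlr2 had 3 and Nfkb2 had 5, with an overlapping pair in both Tlr2 and Nfkb2, and the Birc3 window had 0. The genes were listed for their place in this pathway, so the share describes the list only. The matches below, 1 for each gene and read on the strand of the gene, show the element the named targets share. Capitals mark the 10 matching bases.
Nfkbia (chr12:55492657-55492686, minus strand): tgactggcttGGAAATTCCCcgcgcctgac
Tnfaip3 (chr10:19015403-19015432, minus strand): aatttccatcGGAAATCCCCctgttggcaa
Tlr2 (chr3:83841761-83841790, minus strand): aggacacctgGGGAATTCCCacacggagcc
Nfkb2 (chr19:46304688-46304717, plus strand): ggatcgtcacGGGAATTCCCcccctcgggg
Tifa (chr3:127790680-127790706, plus strand): gttgtgatccGGGATTTTCCaattttc
The Nfkbia match began 29 bases before the transcript start, that of Tnfaip3 12, that of Nfkb2 39 and that of Tlr2 172 bases before it. The Tifa match began 34 bases after the start of one of its transcripts. The capitals of Tlr2 and Nfkb2 are the same 10 letters, which read the same on both strands.

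Levels are the authors' log2 values of a quantity called sigma, whose definition and depth are not given in the sources used here, so levels are compared between groups within a gene and not between genes. No spread between mice is available for 8 of the 9 groups. The labels give the tissue as liver and the cell type as hepatocytes. The hepatocyte genes Alb (levels 14.7 to 16.0 over the 9 means) and Ttr (12.1 to 13.2) were present throughout, and so were the Kupffer cell genes Clec4f (6.43 to 7.76) and Cd5l (5.87 to 8.10), so the tables are not those of hepatocytes alone. In such bulk samples, fewer cells of a type and less RNA per cell cannot be told apart.

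In 12-month livers at 72 h, all 7 genes were higher with ATRi than without it, by 1.20 to 3.11 on the log2 scale, and each had its highest group mean there. A highest mean in this group was found for 29.5% of all entries. For each of the 7, all 4 ATRi livers lay above the untreated mean of the same age and time, which held for 34.7% of all entries. Liver M546 was the lowest of the 4 for 6 of the 7 genes, against 37.7% of all entries. The exception was Tlr2, for which M545 was lowest.

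**Figure D1:**
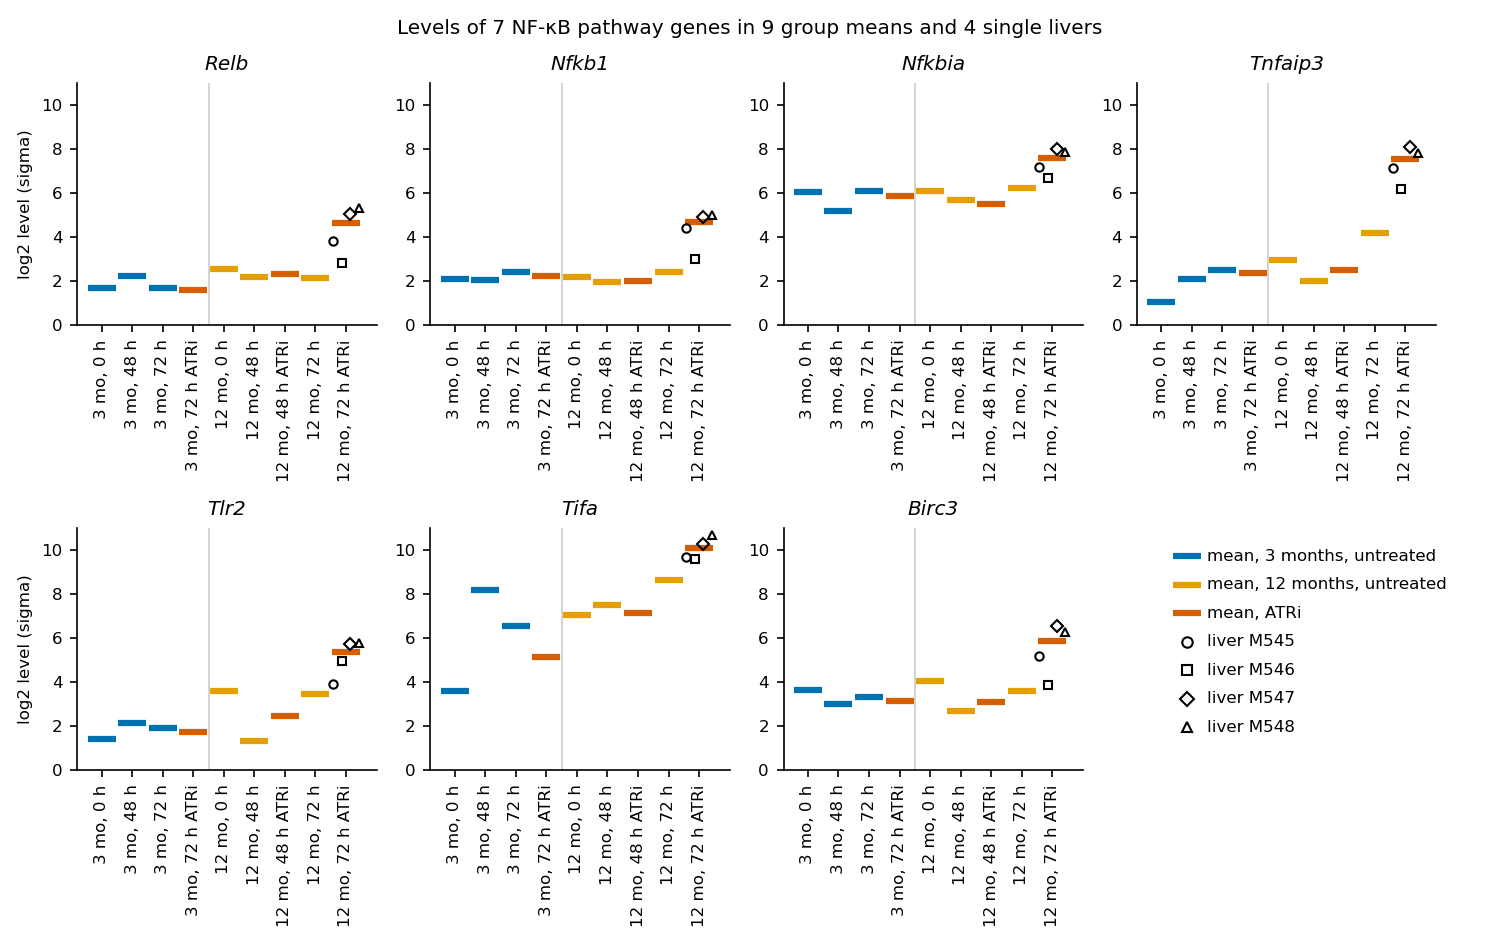
Log2 level (y axis, sigma) of each gene in the 9 groups (x axis: age, hours after PH and ATRi), with horizontal bars for the deposited group means and open symbols for the 4 single livers of the 12-month ATRi group at 72 h. The bar of that group is the highest in all 7 panels, and M546 (square) is the lowest symbol in 6 of them.

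Among the inhibitors, Tnfaip3 encodes A20, a ubiquitin-editing enzyme that shuts off signalling upstream of the IκB kinases, and Nfkbia encodes IκBα, which binds NF-κB dimers. Tnfaip3 (chr10:19000910-19015657, minus strand) had levels of 7.13, 6.17, 8.07 and 7.80 in M545, M546, M547 and M548, with a mean of 7.29 ± 0.84 (SD, n = 4). The untreated 12-month mean at 72 h was 4.18, the second-highest of the 9 groups, and the other means ran from 1.04 in 3-month livers at 0 h to 2.95 in 12-month livers at 0 h. All 4 ATRi livers were thus above every other group mean, the lowest of them by 1.99.

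Nfkbia (chr12:55489410-55492647, minus strand) was at 7.15, 6.65, 7.96 and 7.87 in the 4 livers (7.41 ± 0.62, SD, n = 4). The other 8 means lay between 5.16, in 3-month livers at 48 h, and 6.204, in untreated 12-month livers at 72 h. The lowest liver, M546, stood 0.45 above the highest of those means, and Nfkbia had the smallest ATRi difference of the 7 genes, 1.20.

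Of the subunits, Relb takes part mainly in the non-canonical pathway, and Nfkb1 encodes p105, the precursor of p50. Relb (chr7:19606217-19629438, minus strand) had levels of 3.82, 2.82, 5.04 and 5.32 in the 4 livers (4.25 ± 1.15, SD, n = 4) and 2.12 in untreated 12-month livers at 72 h. Its other means ran from 1.60 in 3-month ATRi livers at 72 h to 2.54 in 12-month livers at 0 h. M546 lay 0.28 above the latter, while M548 lay 2.78 above it, so the treated livers themselves spanned a wide range.

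Nfkb1 (chr3:135584655-135691547, minus strand) was at 4.392, 2.986, 4.908 and 4.998 in the 4 livers (4.32 ± 0.93, SD, n = 4). In the 8 other groups its mean stayed between 1.97 and 2.39, the narrowest range of the 7 genes, and all 4 ATRi livers lay above it, M546 by the least.

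The joined entry of Nfkb2 (chr19:46304320-46312385, plus strand), the gene of the p100 precursor of the non-canonical pathway, and Psd, which overlaps its end on the other strand, was at 5.78, 5.33, 6.21 and 6.42 in the 4 livers and 4.63 in untreated 12-month livers at 72 h. Its other means lay between 3.88 and 4.75. Reads of the genes in this entry cannot be told apart, so its difference of 1.31 is uncertain for Nfkb2 and is not counted below.

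Tlr2, a receptor for bacterial lipoproteins (chr3:83836272-83841767, minus strand), was at 3.90, 4.93, 5.71 and 5.77 in M545, M546, M547 and M548 (5.08 ± 0.88, SD, n = 4). The untreated 12-month means were 3.57 at 0 h, 1.31 at 48 h and 3.45 at 72 h, and the 3-month means lay between 1.39 and 2.15. The lowest liver, M545, stood 0.33 above the 12-month mean at 0 h.

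Tifa encodes an adaptor that carries the signal of the bacterial sugar sensor ALPK1 to TRAF6. Tifa (chr3:127789805-127832164, plus strand) was at 9.68, 9.58, 10.24 and 10.68 in the 4 livers (10.05 ± 0.52, SD, n = 4) and 8.60 in untreated 12-month livers at 72 h. Its means in the other groups ran from 3.59 in 3-month livers at 0 h to 8.15 in 3-month livers at 48 h, the widest range of the 7 genes. A long Tifa transcript overlaps Ap1ar (chr3:127807007-127837523, minus strand), whose mean was also higher with ATRi, by 1.64, and use of strand in the counting is not given in the sources used here.

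Birc3 encodes cIAP2, a ubiquitin ligase of TNF receptor complexes. Birc3 (chr9:7848699-7873186, minus strand) was at 5.16, 3.84, 6.53 and 6.25 in the 4 livers (5.45 ± 1.22, SD, n = 4) and 3.59 in untreated 12-month livers at 72 h. The 12-month mean at 0 h was 4.05, above M546, so Birc3 was the 1 gene of the 7 whose 4 livers did not all exceed the other 8 means. For the other 6 they did, as for 15.5% of all entries. The adjacent paralog Birc2 (chr9:7818227-7837064, minus strand) ran in parallel over the 9 means (Pearson's r = 0.96) and was 1.68 higher with ATRi in the deposited means, and the 2 paralogs may share reads.

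The comparison that asks whether ATRi changed these genes in older livers, ATRi against untreated at 72 h and 12 months, was tested with limma across all 11119 entries, with the spread taken from the 4 ATRi livers. The largest difference was that of Tnfaip3, 3.11 (95% interval 2.07 to 4.16), followed by Relb (2.14, 0.75 to 3.52), Nfkb1 (1.93, 0.79 to 3.08), Birc3 (1.86, 0.40 to 3.32), Tlr2 (1.62, 0.54 to 2.71), Tifa (1.45, 0.80 to 2.09) and Nfkbia (1.20, 0.44 to 1.97). None passed the adjusted threshold of 0.05, with adjusted p from 0.0513 (Tnfaip3 and Tifa) to 0.084 (Birc3) by limma, and 0 of 11119 entries did (0%). At an unadjusted limma p under 0.05, 7 of the 7 genes were higher, against 23.8% of all entries. By size alone, 7 of 7 were higher by 1 or more, against 5.18% of all entries. The adjusted call moved with the livers kept and with centring. Without M546, 6 of the 7 genes and 2258 of all entries passed as higher, Tlr2 being the exception. With each liver and mean centred on its median, 2 of the 7 (Tnfaip3 and Tifa, adjusted p = 0.0469) and 469 entries passed.

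The same treatment gave smaller or opposite differences of means in the other 2 settings. In 3-month livers at 72 h, the ATRi mean was below the untreated mean for all 7 genes, by 0.085 for Relb up to 1.40 for Tifa, which was the only gene of the 7 lower by 1 or more (0.126% of all entries were). The Tifa means were 5.14 with ATRi and 6.54 without. In 12-month livers at 48 h, the 7 differences ran from −0.35 for Tifa to 1.13 for Tlr2, the only gene of the 7 higher by 1 or more (0.324% of all entries). The Tlr2 means there were 2.43 with ATRi and 1.31 without. These are differences of single means with no test.

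**Figure D2:**
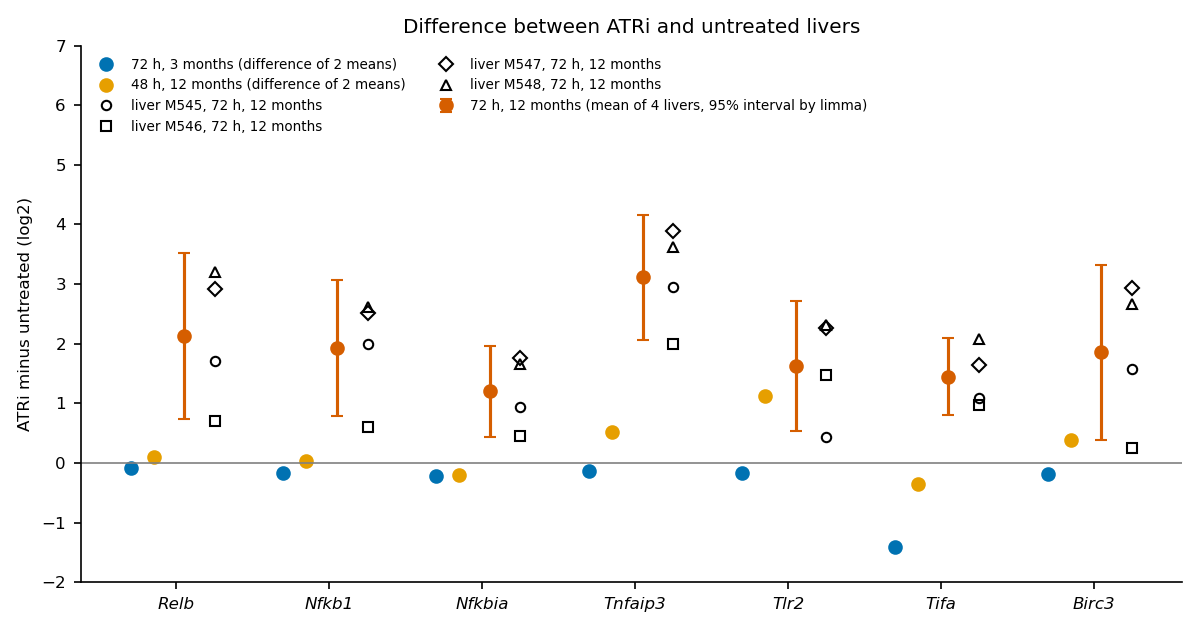
ATRi minus untreated level (y axis, log2) for each gene (x axis) at 72 h and 3 months, at 48 h and 12 months, and at 72 h and 12 months, the last with the mean of 4 livers and its 95% limma interval and with each liver against the untreated mean. The 3-month points lie below 0 for all 7 genes, and every single-liver point lies above 0.

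Whether the ATRi difference at 72 h was itself larger at 12 than at 3 months was tested as an interaction in the same limma fit. It was positive for all 7 genes, from 1.43 (95% interval 0.34 to 2.51) for Nfkbia to 3.25 (1.76 to 4.73) for Tnfaip3. None passed (adjusted p by limma 0.11 to 0.208), and 6 of 7 did at an unadjusted p under 0.05, against 15.4% of all entries. The 1 entry past the adjusted threshold (0.00899% of all) was Cyp2a4, no member of the list and named after its values were seen. Without M546, 6 of 7 passed, as did 1154 entries.

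The next 3 comparisons rest on the same 4 ATRi livers as those above and are not independent of them. Between ages under ATRi at 72 h, all 7 genes were higher at 12 months and passed the test, against 17.3% of all entries. Tnfaip3 rose by 4.94 (95% interval 3.90 to 5.99, limma adjusted p = 0.006) from a 3-month mean of 2.35. Tifa rose by 4.90 (4.26 to 5.55, limma adjusted p = 0.0031) from 5.14. Tlr2 followed with 3.34, Relb with 2.65, Birc3 with 2.31, Nfkb1 with 2.11 and Nfkbia with 1.57 (limma adjusted p from 0.0095 for Tlr2 to 0.0345 for Birc3). For each gene all 4 livers were above the 3-month ATRi mean. Without M545, 5 of the 7 passed, without M547 4 and without M548 3. With each mean given the weight of 1 mouse, 0 of 7 passed (adjusted p 0.0552 to 0.22).

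Against 12-month livers before PH, 6 of the 7 rose in the ATRi livers at 72 h, against 23% of all entries. Tnfaip3 was higher by 4.35 (limma adjusted p = 0.0013), Tifa by 3.02 (0.001), Nfkb1 by 2.13 (0.0075), Relb by 1.71 (0.0305), Tlr2 by 1.51 (0.0204) and Nfkbia by 1.33 (0.0095). Birc3 was 1.40 higher with an adjusted p of 0.0674, M546 lying 0.20 below the mean at 0 h. Because the mice at 72 h are also in the 0 h mean, shared mice were treated as independent here. With each mean given the weight of 1 mouse, only Tnfaip3 and Tifa passed, and without M547 or M548 4 of the 7 did.

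Against ATRi livers of the same age at 48 h, all 7 rose, against 17.8% of all entries. Tnfaip3 rose by 4.78 from a mean of 2.51 (limma adjusted p = 0.0039), Tifa by 2.91 from 7.14 and Tlr2 by 2.64 from 2.43. The other 4 rose by 1.93 (Nfkbia) to 2.38 (Birc3). Without M545, M547 or M548, 5 of the 7 passed. With each mean given the weight of 1 mouse, 2 of the 7 passed.

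In untreated livers, the genes that moved by 1 or more between means were mainly Tifa, Tnfaip3 and Tlr2. In 3-month mice, Tifa was at 3.59 before PH, 8.15 at 48 h and 6.54 at 72 h, and Tnfaip3 at 1.04, 2.10 and 2.48. These 2 genes were the only ones of the 7 higher by 1 or more at 48 h (by 4.56 and 1.06, against 3.76% of all entries) and at 72 h (by 2.95 and 1.44, against 2.46%) than at 0 h. From 48 to 72 h Tifa was lower by 1.61, the only 1 of the 7 (3.04% of all entries).

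In untreated 12-month mice, Tifa was at 7.03 before PH, 7.49 at 48 h and 8.60 at 72 h, Tnfaip3 at 2.95, 1.99 and 4.18, and Birc3 at 4.05, 2.68 and 3.59. Tlr2 and Birc3 were lower at 48 h than at 0 h by 2.26 and 1.37 (1.85% of all entries were lower by 1 or more). From 48 to 72 h, Tnfaip3 was higher by 2.19, Tlr2 by 2.15 and Tifa by 1.11 (3.32%), and at 72 h Tifa and Tnfaip3 were above their 0 h means by 1.57 and 1.23 (2.92%). Relb, Nfkb1 and Nfkbia moved by less than 1 in every untreated comparison over time.

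Between ages without treatment, Tifa, Tlr2 and Tnfaip3 had means higher by 1 or more at 12 months, at 0 and at 72 h. Before PH, Tifa was higher at 12 months by 3.44, Tlr2 by 2.17 and Tnfaip3 by 1.91, against 0.872% of all entries. At 72 h the differences were 2.06 for Tifa, 1.70 for Tnfaip3 and 1.55 for Tlr2, against 1.97% of all entries. At 48 h, 0 of the 7 differed by 1 or more in either direction (0.782% of entries were higher and 0.576% lower), and Tifa was 0.66 lower at 12 months. No spread between mice stands behind these differences.

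The other genes of the pathway were taken from 9 lists of upstream, regulatory and target genes, also chosen with earlier results of these data known. Of the 122 genes listed, 97 had an entry of their own. With ATRi at 12 months and 72 h, 67 of the 97 were higher than without. Of the 97, 20 were higher by 1 or more, against 5.18% of all entries, and 0 were lower by 1 or more. Their median difference was 0.26, against 0.03 over all entries, and 0 passed the adjusted limma test. At an unadjusted limma p under 0.05, 34 of the 97 (35.1%) were higher and 8 (8.25%) lower, against 23.8% and 13.2% of all entries. In either direction these were 42 of the 97 (43.3%), against 37.0% of all entries. In 3-month livers at 72 h, 36 of the 97 were higher with ATRi, 0 by 1 or more. There 1 of the 97 was lower by 1 or more, as were 0.126% of all entries. The median difference was −0.062, against −0.003 over all entries. Between ages under ATRi, 40 of the 97 rose at 12 months and 2 fell, against 17.3% and 12.9% of all entries. Without M547 or M548, 19 of the 97 rose, and with each mean at the weight of 1 mouse 0 did.

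Upstream, the IL-1 receptor gene Il1r1 was at 7.80, 6.02, 7.54 and 8.21 in the 4 ATRi livers, 4.88 in untreated 12-month livers at 72 h and 3.59 in 3-month ATRi livers, a rise of 3.80 between ages under ATRi (limma adjusted p = 0.0088). Alpk1, the kinase upstream of Tifa, was at 6.42, 3.88, 5.60 and 5.44, against 3.01 untreated and 0.95 at 3 months with ATRi, and rose by 4.38 between ages (limma adjusted p = 0.0083). Both genes were above the untreated mean in 4 of 4 livers, with M546 lowest.

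The counts by list that follow are between ages under ATRi, where 17.3% of all entries rose. In the list of upstream kinases and their partner proteins, 6 of 18 rose and 1 fell (Tab1, a partner protein). The former were led by Map3k14 (2.45), which encodes NIK, the kinase of the non-canonical pathway, and Ripk2 (2.40), which acts downstream of NOD receptors. Of the feedback list, 5 of 11 rose, led by Zc3h12a (2.54), the gene of the RNase Regnase-1. Of 6 other Rel and IκB genes, 4 rose, led by Nfkbiz (1.99), the gene of the atypical IκBζ. Of the ligands of TNF and IL-1 receptors, 4 of 7 rose, and the IL-1 receptor antagonist gene Il1rn (3.48) led Il1b (2.78). Of the TNF and IL-1 family receptors 5 of 10 rose, of the adaptor list 2 of 11 and of the IAP proteins (the family of Birc3) 2 of 4, with 0 falling in each. Of 16 other targets 6 rose and 1 (Plau) fell, with Mmp9 (3.01), the adhesion gene Icam1 (2.54) and the survival gene Bcl2l1 (2.21) among the former. Mmp9 and Lcn2, both among the 16, are also counted among the neutrophil markers below.

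Of the 14 other members of the list of Toll-like receptors and co-receptors, 6 rose between ages under ATRi and 0 fell, led by Lbp (1.70, limma adjusted p = 0.0094), which encodes the lipopolysaccharide binding protein, and Tlr13 (1.14, limma adjusted p = 0.0177), a receptor for bacterial ribosomal RNA. With ATRi against untreated at 12 months and 72 h, 6 of the 14 were higher, 0 by 1 or more, and their median difference was −0.16. Tlr2 differed by 1.62 there. In the same comparison the adaptor list had a median of −0.02, and 1 of its 11 other members, Alpk1, was higher by 1 or more.

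**Figure D3:**
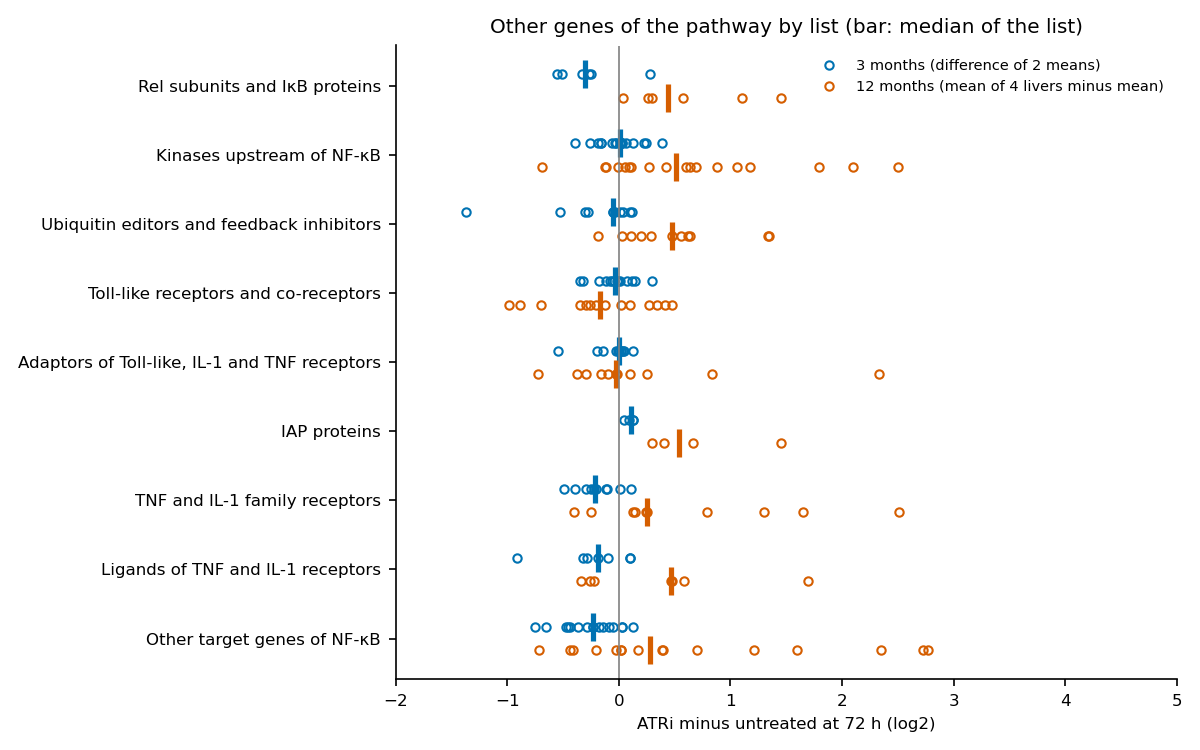
ATRi minus untreated level at 72 h (x axis, log2) for the 97 other pathway genes by list (y axis), with open circles for genes at 3 and at 12 months and a vertical bar for the median of each list. At 12 months 20 genes lie at 1 or above and at 3 months 0 do, and the 12-month bars of the Toll-like receptor and adaptor lists lie at −0.16 and −0.02.

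Because Tlr2 and several of the other genes are also expressed by immune cells, markers of other cell types were read in the same tables. With ATRi at 12 months and 72 h, 1 of 9 Kupffer cell and macrophage markers (Cd163) was higher than without, 0 by 1 or more, with a median difference of −0.42. Their summed level was 10.06, 9.13, 9.35 and 9.28 (log2) in the 4 livers and 9.70 in the untreated group. Of 10 neutrophil markers 8 were higher, 0 by 1 or more, and 1 was lower by 1 or more (Mpo, −1.30), with a median of 0.36. Their summed level was 7.36, 8.10, 7.42 and 7.72 against 7.44. The largest part of the untreated sum was Lcn2 (6.24, and 6.09 to 6.44 in the 4 livers), which is also in the list of NF-κB targets. This sum is therefore not independent of that list. M546, the lowest liver for 6 of the 7 genes, had the highest neutrophil sum, but its single markers went both ways. This liver was the highest of the 4 for Ngp, Ltf, Mpo and S100a8 and the lowest for Cxcr2, Csf3r, Lcn2 and Ly6g. In the untreated group 0 of 9 and 1 of 10 markers were at a level under 1, the latter being Ly6g (0.092, and 0.27 to 1.05 in the 4 livers).

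In several other comparisons in which genes of the 7 were higher, most markers of both cell types were higher too. Against ATRi livers at 48 h, the 12-month ATRi livers at 72 h had higher levels of 9 of 9 macrophage markers (8 passed, median 1.33) and 9 of 10 neutrophil markers (7 passed, median 1.93). In that comparison 17.8% of all entries passed as higher, and the median over all entries was −0.037. Between ages under ATRi at 72 h, 9 of 9 macrophage markers were higher (4 passed, median 1.27) and 10 of 10 neutrophil markers (8 passed, median 2.24). Here 17.3% of all entries passed as higher, with a median of 0.017 over all entries. Before PH they were higher at 12 than at 3 months in 9 of 9 and 9 of 10 cases (medians 0.58 and 0.91). Between 48 and 72 h in untreated 12-month livers, 8 of 9 macrophage markers were higher by 1 or more (median 2.06), as were 3.32% of all entries. Tlr2 was higher by 2.15 there. In untreated 3-month livers, Tifa and Tnfaip3 were higher by 1 or more at 48 and 72 h than at 0 h, and the markers were mixed. Of the macrophage markers, 4 of 9 were higher at 48 h (median −0.20) and 5 of 9 at 72 h (0.055). Of the neutrophil markers, 7 of 10 (0.26) and 5 of 10 (0.16) were. The part of these cell types in the differences of the genes was not tested.

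**Figure D4:**
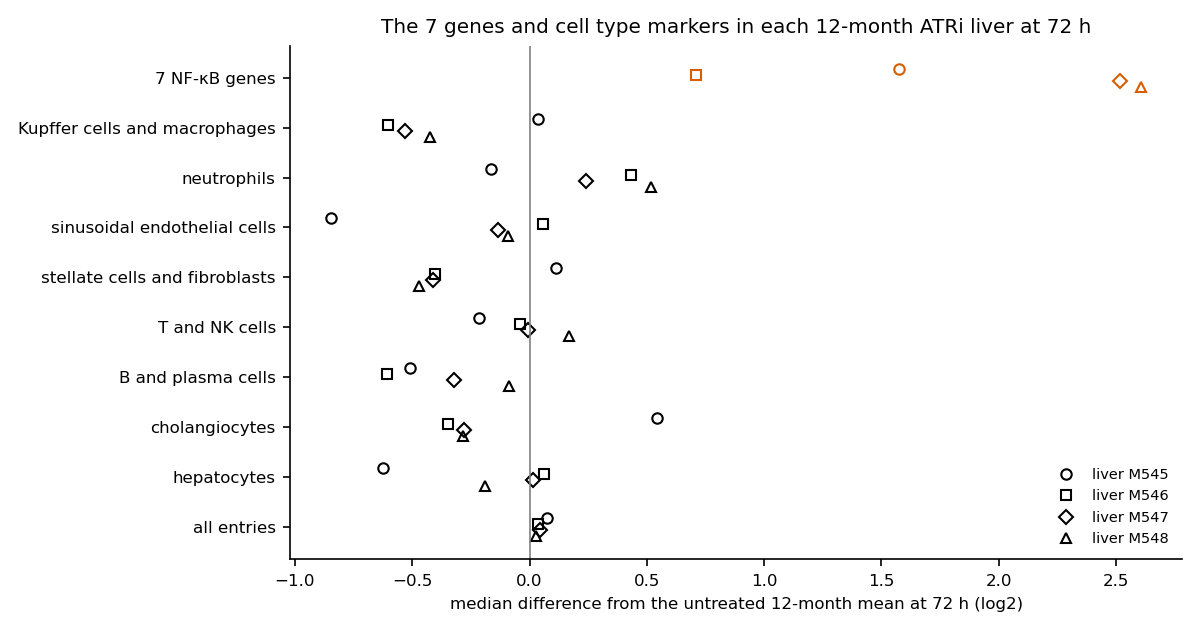
Median difference of each 12-month ATRi liver at 72 h from the untreated mean of that age and time (x axis, log2) for the 7 NF-κB genes, for 8 cell type marker lists and for all entries (y axis), with 1 symbol per liver. The medians of the 7 genes run from 0.71 in M546 to 2.61 in M548, while those of the marker lists lie between −0.85 and 0.54.

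Over the 9 group means the 7 genes varied together, with a median Pearson's r of 0.86 over the 21 pairs (0.40 to 0.93). Over the 8 means without the 12-month ATRi group at 72 h the median was 0.45 (−0.32 to 0.83), so much of the shared pattern lay in that group. The means share mice between 0 and 72 h, and the values are descriptions. Entries like each gene over the 9 means were sought among those whose means spanned 1 or more. Joined entries and predicted, clone or mitochondrial names were left out. The 3 with the highest Pearson's r were Spint2, Cd33 and Alpk1 for Tnfaip3 (0.98 to 0.99), and Runx1, Il1r2 and Irak3 for Relb (0.97 to 0.98). They were Wwtr1, Mrps28 and Tgfa for Nfkb1 (all over 0.99), and Aplp2, Dym and Ap1b1 for Nfkbia (all 0.99). For Tlr2 they were Cpb2, Mcemp1 and Ms4a6d (0.96 to 0.97), for Tifa Nnmt, Slc30a5 and Syt12 (0.95 to 0.97), and for Birc3 Stau1, Rnf130 and Fgfr2 (0.97 to 0.99).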

How the data were processed

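The authors deposited 12 tables of log2 levels (sigma, not defined), each with the same 11119 entries. They hold 1 mean for each of the 9 groups and the 4 single livers of the 12-month ATRi group at 72 h. The submitters' processing notes name GRCm38/mm10, and the aligner, the counting, the scaling and the read depth are not given in the sources used here. Depth therefore sets no interval here.

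Gene names were matched to GENCODE M21 for coordinates. Values were used as deposited. Between 2 means, a difference of 1 or more was counted, with no test. Comparisons with the 4 livers used limma 3.58.1 in R 4.3.3 (9 group coefficients, livers with weight 1, means weighted by mice, trend and robust, two-sided, Benjamini-Hochberg over all entries). All spread comes from the 4 livers and is borrowed for the groups given as means. The fit was tested on simulated data. Members and lists were chosen with earlier results of these data known. All listed genes are described. Other pathway genes named with values are among the 4 per list with the largest passing differences in a tested comparison, apart from Tab1 and Plau, named because each was the 1 gene of its list that fell. Further exceptions are Tlr7 and Cd14, named for their low levels, and Lcn2, named as a marker. The separate labelling of mice is taken from the labels, and p-values measure the spread between these 4 livers.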

Additional observations from a re-analysis of the deposited data

How the results depend on the processing

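Under the alternatives run, the differences of the 7 genes kept their sign except for Nfkb1 at 3 months (48 h against 0 h, −0.034 and 0.056 when centred) and Relb at 12 months (72 h against 48 h, −0.07 and 0.027). Beside the values given above, these counts moved by over 1.5 times, and the cause was not tested. With 1 added to the linear levels, the genes called at a difference of 1 or more among the 7 were 1 (3 months, 48 h against 0 h) and 0 (ATRi at 48 h), and the entries called were 180 higher (3 months, 72 h against 0 h), 216 lower (72 h against 48 h), 137 lower (12 months, 48 h against 0 h), 20 higher (ATRi at 48 h) and 7 lower (ATRi at 3 months). With means at the weight of 1 mouse, entries passing limma as higher were 121 (ATRi at 72 h against 0 h, with 2 of the 7), 278 (against ATRi at 48 h, with 2 of the 7), 1 (12 against 3 months under ATRi, with 0 of the 7) and 0 (interaction). The interaction also gave 0 entries without trend and robust fitting and 0 at a mean level of 1 or more. Centring gave 469 entries and 2 of the 7 for ATRi against untreated at 12 months.

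Leaving out each liver in turn gave 0 to 6 of the 7 and 0 to 2258 entries for ATRi against untreated, and 0 to 6 and 0 to 1154 for the interaction, the upper values without M546. Against 0 h it gave 4 to 7 of the 7 and 1819 to 2807 entries, against ATRi at 48 h 5 to 7 and 1226 (without M547) to 2395, and for 12 against 3 months under ATRi 3 to 7 and 717 (without M547) to 2646.

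Centring turned the split of higher and lower calls from 274 and 225 to 339 and 156 (3 months, 72 h against 0 h) and from 369 and 210 to 467 and 138 (12 months, 72 h against 48 h). The deposited mean of the 12-month ATRi group exceeded the mean of its livers by 0.013 to 0.39 for the 7 genes (median 0.088 over all entries). From the log2 of the mean linear level of the livers it differed by −0.057 to 0.182 for them. The tests set the mean of the log2 liver levels against deposited means, so the 2 sides are unlike measures. With deposited means on both sides, the differences from untreated 12-month livers at 72 h were larger, 1.352 for Nfkbia and 3.345 for Tnfaip3. No paired analysis was possible because the tables hold only means for the mice sampled at both 0 and 72 h.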
